A study of Mus musculus with 4 samples.

Results

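MHC class I antigen presentation was followed through 10 genes: H2-K1 and H2-D1, which encode the classical heavy chains, B2m, Tap1, Tap2, Tapbp, Psmb8, Psmb9, Psmb10 and Nlrc5. They are 10 of the 18193 genes with a probe set of their own on the array, and every probe set annotated to only 1 of these symbols was taken, 27 of 45037 once controls were left out. The cells were immortalized mouse embryonic fibroblasts in which both copies of Paxip1, the gene for the BRCT-domain protein PTIP, carried loxP sites (PTIP flox/flox). PTIP -/- cells had received a retrovirus with Cre recombinase and PTIP +/+ cells the vector without it, and all were selected with puromycin in serum-containing medium. Both genotypes gave 2 RNAs, numbered 1 and 2 and hybridised to 1 Affymetrix array each, so 4 arrays limit the precision of every value. The sources used here do not say whether a number marks a separate culture, whether the cells descend from 1 or many clones, or which mouse strain and so which H2 haplotype they carry. A p-value below thus measures the spread between RNAs that may not be independent, and loss of PTIP cannot be told apart from the presence of Cre.

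MHC class I molecules show peptides from inside the cell to CD8 T cells. The proteasome cuts proteins into peptides, with Psmb8, Psmb9 and Psmb10 as the catalytic subunits of the interferon-inducible immunoproteasome. The transporter made of Tap1 and Tap2 moves the peptides into the endoplasmic reticulum, and tapasin, the product of Tapbp, holds the heavy chain next to the transporter until a peptide is bound. B2m is the invariant light chain, and Nlrc5 is a transactivator of class I promoters. Fibroblasts present antigen by this route at a low resting level that interferon raises.

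H2-K1, H2-D1 and B2m are known for a shared promoter layout, so their promoters are shown before their values. Sequences are from RefSeq windows of assembly GRCm38.p6 that run from 250 bases before to 50 bases after a gene's start, and 8 of the 10 members had one. Capitals mark matches on either strand to 4 motifs: an NF-kB site (GGGNNTTNC), the IRF core of interferon response elements (AANNGAAA), the core of a cyclic AMP response element (TGACG) and a CCAAT box (CCAAT). The stretch of H2-D1 is chr17:35262913-35263093 on the plus strand, the 181 bases directly before its start. That of H2-K1 is chr17:34000430-34000458 on the minus strand, bases -111 to -83 from the more upstream of its 2 listed starts, cut to the part that holds the NF-kB and IRF matches. That of B2m is chr2:122147527-122147686 on the plus strand, the 160 bases before its start. The fourth, chr17:34187331-34187555 on the plus strand, is the whole of the 225 bases between the starts of Psmb9 and Tap1, which are transcribed away from each other.
H2-D1: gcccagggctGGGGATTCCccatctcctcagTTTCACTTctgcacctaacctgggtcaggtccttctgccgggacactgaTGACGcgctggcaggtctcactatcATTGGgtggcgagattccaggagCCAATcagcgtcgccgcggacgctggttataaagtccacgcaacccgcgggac
H2-K1: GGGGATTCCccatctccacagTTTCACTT
B2m: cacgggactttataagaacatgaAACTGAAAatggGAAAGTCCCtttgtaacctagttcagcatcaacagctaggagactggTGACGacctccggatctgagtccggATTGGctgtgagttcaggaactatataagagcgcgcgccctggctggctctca
Tap1 and Psmb9: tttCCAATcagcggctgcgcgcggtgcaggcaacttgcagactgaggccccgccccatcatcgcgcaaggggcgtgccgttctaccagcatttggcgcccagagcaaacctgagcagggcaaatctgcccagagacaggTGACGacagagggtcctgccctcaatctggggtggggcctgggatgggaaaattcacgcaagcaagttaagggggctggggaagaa

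The windows of H2-K1, H2-D1 and B2m held all 4 motifs, as did 93 of all 32851 promoter windows (0.283%). One by one, the NF-kB site was in 15.2% of windows, the IRF core in 23.9%, the TGACG core in 20.8% and the CCAAT box in 37.4%. The NF-kB letters are a shortened form, chosen after a form with 1 further C at the 3′ end had been searched. With that C required, the NF-kB site was in 4.79% of windows and all 4 motifs in 33 (0.1%), those of H2-K1, H2-D1 and B2m still among them. The stretch from the NF-kB to the IRF match was identical between H2-K1 and H2-D1 at 28 of 29 bases, and without gaps 108 of 121 bases around it were identical. The windows of Tap1 and Psmb9, which overlap, held only TGACG and the CCAAT box. That of Tapbp held CCAAT boxes alone, and those of Psmb8 and Psmb10 held none of the motifs. The motifs were chosen after the H2 promoters had been read, and a match is a description of letters, not of binding. In the RefSeq gene order, Psmb9, Tap1, Psmb8 and Tap2 follow one another without another protein-coding gene between them, in the class II part of the MHC next to H2-DMb1 and H2-Ob.

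**Figure D1:**
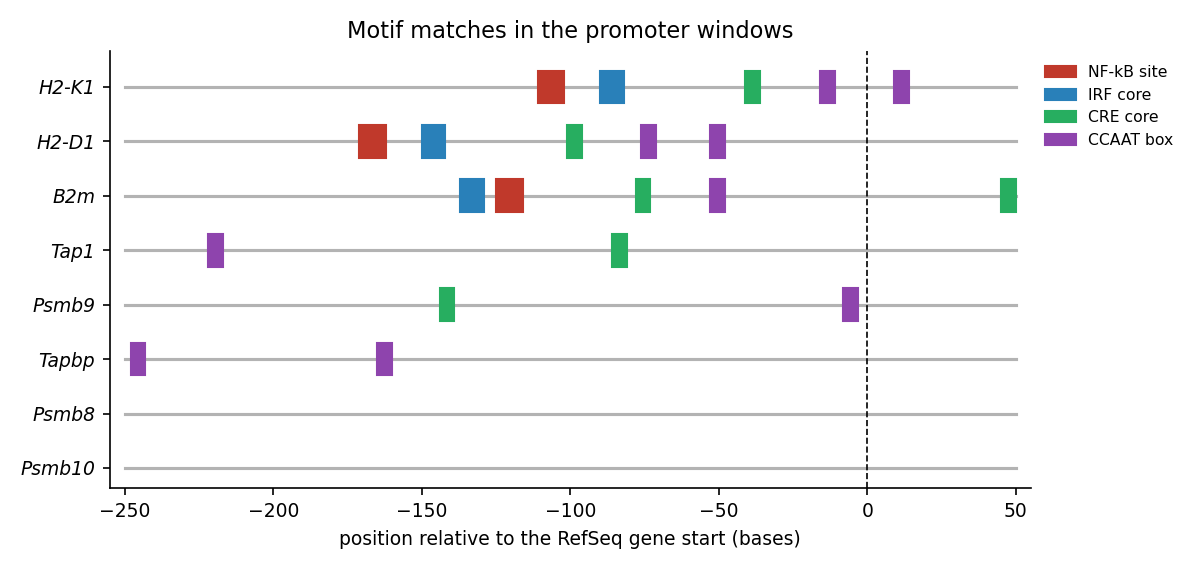
Motif matches (coloured boxes) along the promoter windows of the 8 members with a window, in bases from the RefSeq gene start (dashed line). H2-K1, drawn from the more upstream of its 2 starts, H2-D1 and B2m hold all 4 motifs, and the windows of Psmb8 and Psmb10 hold none.

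Deposited values are linear signals, 1 per probe set and array. Every array had a mean of 500.0 once the top and bottom 2% of values were left out, and array medians ran from 75.8 to 97.8. Probe sets were tested where the geometric mean over the 4 arrays reached the 40th percentile, a signal of 47.68, which is also taken as the lowest signal to be read as a level. The deletion showed in Paxip1 itself, at least 21.6-fold lower in PTIP -/- among the arrays numbered 1 and 13.9-fold lower among those numbered 2 on its brightest probe set. Even this log2 difference of -4.18 ± 0.37 (SE) did not pass the test, with adjusted p = 0.9998 in limma. The 2 numbers differed in more than genotype. Of the 8 fibroblast markers listed, Thy1 had signals of 14822.9 (PTIP -/-) and 16080.1 (PTIP +/+) on the arrays numbered 1 but 1500.7 and 239.2 on those numbered 2. Pdgfra, a growth factor receptor, was likewise at 3563.4 and 5010.1 in number 1 but at 174.2 and 583.2 in number 2. Pdgfrb lay between 2766.3 and 4378.2, and Col1a1, Col1a2, Col3a1, Vim and Fn1 between 14022.3 and 39291.8 on all arrays. Each comparison below is therefore given within number 1 and within number 2, as 1 array against 1 array with no test, before the fit over all 4.

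H2-D1 was higher in PTIP -/- on all 4 of its tested probe sets. The brightest of them read 2806.5 and 10777.0 in PTIP -/- replicates 1 and 2, against 1443.2 and 3303.1 in PTIP +/+. Within number 1 that was 1.95-fold and within number 2 it was 3.26-fold higher. The genotypes overlapped, since PTIP +/+ replicate 2 lay above PTIP -/- replicate 1. Mean log2 signals were 12.43 ± 1.37 (SD, n = 2) in PTIP -/- and 11.09 ± 0.84 (SD, n = 2) in PTIP +/+, a log2 difference of 1.33 ± 0.81 (SE) with adjusted p = 0.9998 in limma. The second brightest gave 1.91-fold and 2.68-fold, the third 1.98-fold and 4.35-fold, and the dimmest 1.98-fold and 1.46-fold. The dimmest is the 1 tested H2-D1 probe set without the _x_at suffix, by which Affymetrix marks probe sets that hold probes shared with other transcripts. It read 247.7 and 523.7 against 124.9 and 358.4, and it alone had the smaller fold in number 2. Its log2 difference was 0.0071 without PTIP +/+ replicate 1 and 1.53 without PTIP +/+ replicate 2, and that of the brightest probe set 0.36 without PTIP -/- replicate 2 and 2.30 without PTIP -/- replicate 1. The other 5 probe sets of H2-D1 stayed below the level filter, at 1.7 to 46.2.

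H2-K1, the second classical heavy chain, was also higher in PTIP -/-, by more in number 2 on each of its 4 probe sets. The brightest read 2632.8 and 5587.8 against 1731.9 and 2055.0, with both PTIP -/- arrays above both PTIP +/+ arrays. That is 1.52-fold within number 1 and 2.72-fold within number 2, and a log2 difference of 1.02 ± 0.46 (SE). The second brightest read 1636.3 and 7260.5 against 1514.4 and 2287.3. Its difference lay almost wholly in number 2, 3.17-fold beside 1.08-fold in number 1. The third read 444.8 and 1035.2 against 337.6 and 314.8, and the dimmest read 240.1 and 196.2 against 154.9 and 94.6. On neither of these did the genotypes overlap. All H2-K1 probe sets end in _x_at, and what other class I transcripts add to them or to the _x_at probe sets of H2-D1 was not tested.

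Tapbp, the tapasin gene, was higher in PTIP -/- in both numbers, like the heavy chains. Its brighter probe set read 1371.1 and 4265.9 in PTIP -/- against 802.2 and 1454.3 in PTIP +/+, 1.71-fold higher within number 1 and 2.93-fold within number 2. PTIP +/+ replicate 2 was slightly above PTIP -/- replicate 1, so the genotypes overlapped, and the log2 difference was 1.16 ± 0.68 (SE). Its other probe set read 499.1 and 1022.7 against 275.1 and 625.7, which is 1.81-fold and 1.63-fold. Neither Tapbp probe set carries the _x_at suffix.

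The light chain had smaller differences. The brighter B2m probe set read 19299.5 and 26005.1 in PTIP -/- against 18974.2 and 21041.9 in PTIP +/+, 1.02-fold and 1.24-fold higher. The dimmer one read 15073.2 and 19610.3 against 15164.0 and 14522.3, 1.01-fold lower within number 1 and 1.35-fold higher within number 2. PTIP -/- replicate 2 was the highest array on both probe sets, and the other 3 arrays lay close together. The log2 differences were 0.17 ± 0.30 (SE) and 0.21 ± 0.29 (SE). Like the heavy chains, B2m did not pass the test, and the difference between B2m and the heavy chains was not tested. With arrays centred on their medians the brighter one became -0.013.

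The peptide transporter, like some probe sets of Tapbp and H2-D1, followed the replicate number more than the genotype. The brightest Tap1 probe set had signals of 82.8 and 265.0 where PTIP was lost, against 70.0 and 208.9 in PTIP +/+. Number 2 was thus 3.20-fold above number 1 in PTIP -/- and 2.98-fold above it in PTIP +/+, while PTIP -/- exceeded PTIP +/+ by 1.18-fold and 1.27-fold within the numbers. The 1 Tap2 probe set read 80.1 and 307.2 against 57.5 and 191.8, 1.39-fold and 1.60-fold higher in PTIP -/-. Its signal in number 2 was 3.84-fold that in number 1 in PTIP -/- and 3.34-fold in PTIP +/+. For both genes the higher and lower arrays were set by number. The log2 differences of 0.29 ± 0.82 (SE) and 0.58 ± 0.92 (SE) were smaller than their errors. The dimmer Tapbp probe set was likewise 2.05-fold higher in number 2 in PTIP -/- and 2.27-fold in PTIP +/+. The H2-D1 probe set without _x_at was 2.11-fold and 2.87-fold higher there. These folds exceeded the genotype folds of the same probe sets. The brightest H2-K1 probe set was not ordered by number. Its second brightest was, with number 2 higher by 4.44-fold in PTIP -/- and 1.51-fold in PTIP +/+. The other 3 Tap1 probe sets did not pass the filter and reached at most 64.9.

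Of the immunoproteasome subunits only Psmb10 passed the filter, and it showed little difference. It read 344.9 and 341.7 in PTIP -/- against 293.5 and 347.3 in PTIP +/+, a log2 difference of 0.10 ± 0.27 (SE) that became -0.073 with arrays centred on their medians. Psmb8, on its brighter probe set, read 7.0 and 176.0 against 46.7 and 43.8. Only PTIP -/- replicate 2 was above the filter there, at least 3.69-fold over PTIP +/+ replicate 2, and its other probe set stayed below 10. Psmb9 read 49.7 and 24.5 against 16.4 and 9.7, with PTIP -/- replicate 1 alone just above the filter, at least 1.04-fold.

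Nlrc5, the class I transactivator, was near the filter and its difference rests on 1 dim array. Its geometric mean of 50.6 reached the filter only through its PTIP -/- signals. It read 80.2 and 132.1 in PTIP -/- against 62.0 and 10.0 in PTIP +/+. Both PTIP -/- arrays were above both PTIP +/+ arrays, by 1.29-fold within number 1 and at least 2.77-fold within number 2, where 10.0 was raised to the filter. On the measured signals the log2 difference was 2.05 ± 0.96 (SE), and without PTIP +/+ replicate 2 it was 0.73.

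**Figure D2:**
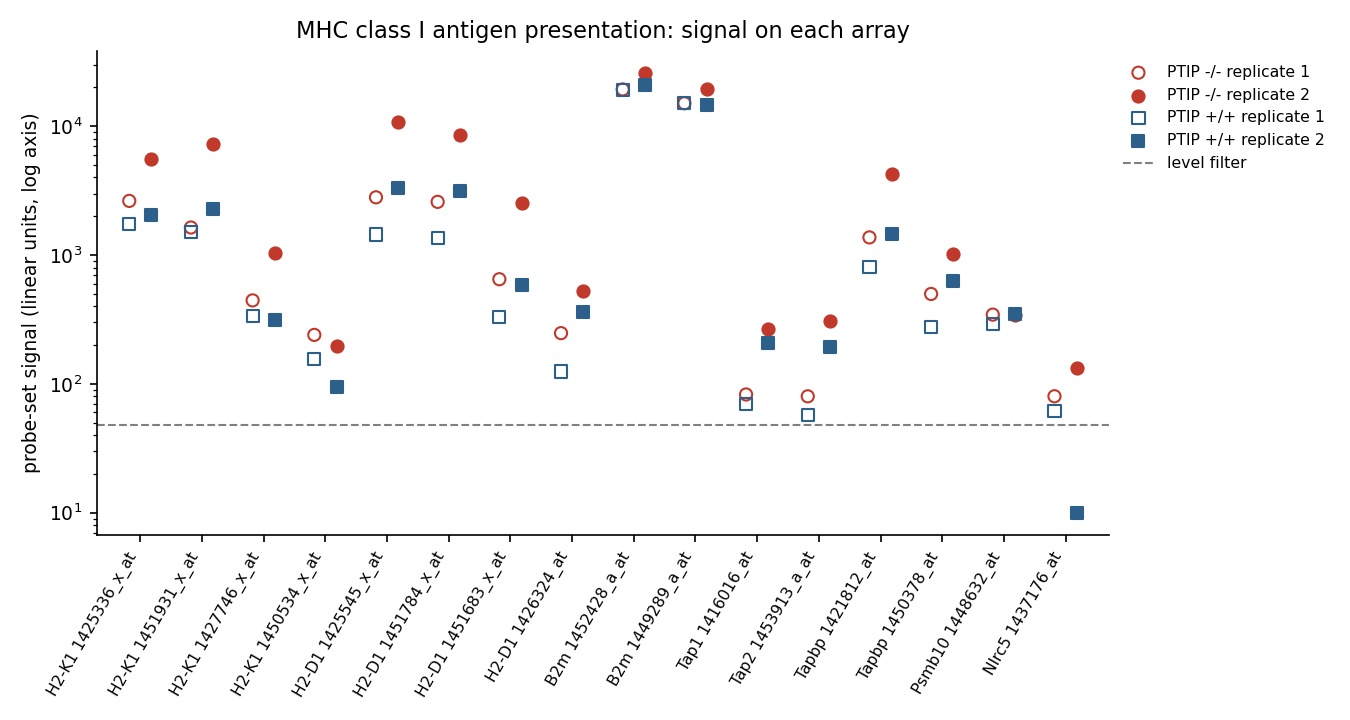
Signal of the 16 tested member probe sets on each of the 4 arrays (log axis, circles for PTIP -/-, squares for PTIP +/+, open for replicate 1 and filled for replicate 2, dashed line for the level filter at 47.68). On the probe sets of H2-K1, H2-D1, Tapbp, Tap1 and Tap2 the circles lie above the squares of the same number. Those of Tap1 and Tap2 also separate by number, as do, among others, both of Tapbp and the brightest of H2-D1.

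Over the members, 16 probe sets of 8 genes passed the filter and 11 did not, those of Psmb8 and Psmb9 among them. In both numbers 14 of the 16 were higher in PTIP -/-, beside 35.9% of all 27022 probe sets tested, and 0 were lower in both, beside 22.3%. The exceptions were 1 probe set of B2m and that of Psmb10, with opposite signs in the 2 numbers. A difference of at least 1.5-fold was reached by 8 of 16 within number 1 (background 13.9%), by 11 within number 2 (17.5%) and by 7 within both (3.85%). These 7 belong to H2-K1, H2-D1 and Tapbp, so they stand for 3 genes and not for 7 independent ones. None of the 16 was at least 1.5-fold lower within number 1 (background 5.78%), number 2 (11.7%) or both (2%). Both PTIP -/- arrays were above both PTIP +/+ arrays on 5 probe sets, beside a background of 18%. These were the probe sets of H2-K1 apart from its second brightest, the third brightest of H2-D1 and that of Nlrc5. As Nlrc5 passed the filter only through its PTIP -/- signals, it adds no support to these counts of higher probe sets.

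The member median was 0.54 on the log2 scale within number 1 and 1.24 within number 2, where all probe sets tested had medians of 0.08 and 0.06. Taking 1 probe set per gene, the medians of the 8 genes were 0.42 and 1.06. Whether the difference is larger in number 2 could not be tested, as each number holds 1 array per genotype. With limma over all 27022 probe sets and Benjamini-Hochberg adjustment, the adjusted p was under 0.05 for 0 upward and 0 downward differences (0% in either direction), so for 0 members. Before adjustment 389 upward (1.44%) and 235 downward (0.87%) differences had p under 0.05, again 0 of them members'. The smallest two-sided p of an exact permutation test with 2 arrays against 2 is 0.333.

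**Figure D3:**
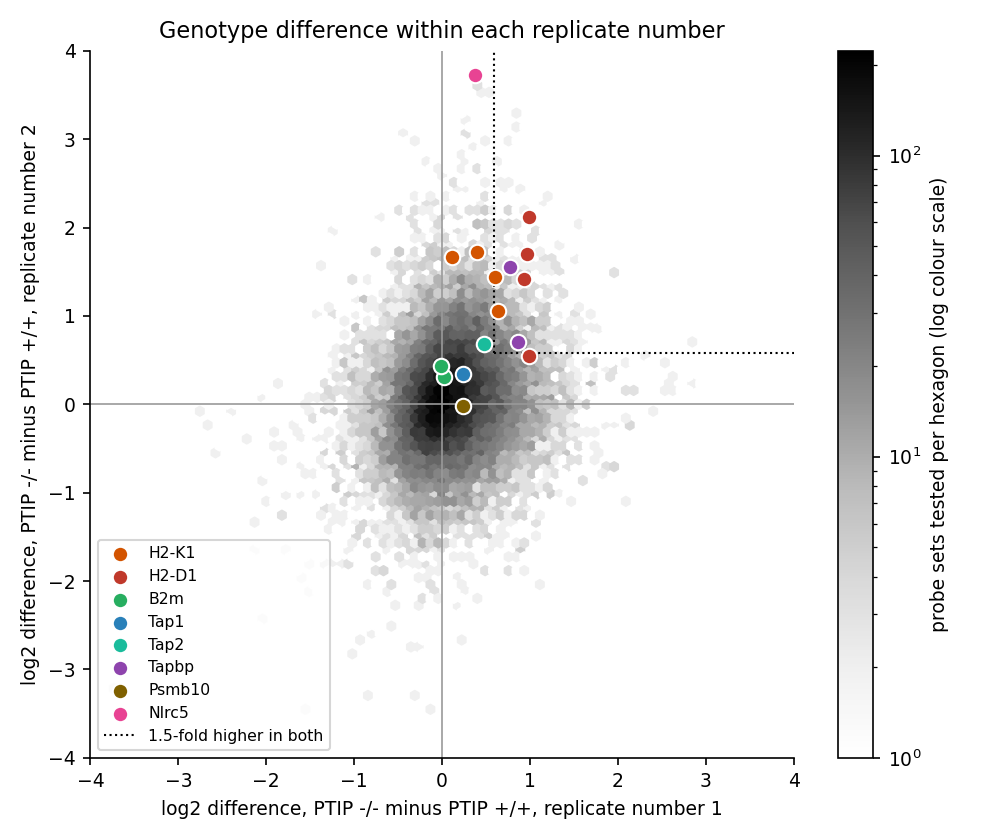
Log2 difference, PTIP -/- minus PTIP +/+, within number 1 (horizontal) and number 2 (vertical) for the probe sets tested (grey hexagons, darker for more, 65 beyond the axes not drawn) and for the 16 tested members (coloured by gene). The upper right corner inside the dotted lines, at least 1.5-fold higher in both, holds 7 member probe sets of H2-K1, H2-D1 and Tapbp, and the height of Nlrc5 rests on a PTIP +/+ signal of 10.0.

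Level also differed between the numbers. In PTIP -/- the member median was 1.15 higher (log2) in number 2 than in number 1, and in PTIP +/+ 0.71 higher, where all probe sets tested had medians of -0.11 and -0.06. H2-D1 on its brightest probe set was 3.84-fold higher in number 2 in PTIP -/- and 2.29-fold in PTIP +/+, and Tapbp 3.11-fold and 1.81-fold. H2-K1 was 2.12-fold and 1.19-fold higher, and B2m 1.35-fold and 1.11-fold. The labels do not say what sets number 2 apart, and its part in the genotype differences was not tested.

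Genes that act beside the members in the same pathway mostly differed little between the genotypes. Of 11 genes of peptide loading and trimming, all tested, 4 lay above and 7 below 0, with a median log2 difference of -0.04. The chaperone Hspa5 read 13586.6 and 16852.2 against 16206.0 and 17134.0. Erap1, the aminopeptidase that trims peptides in the endoplasmic reticulum, had the largest upward difference at 0.18 ± 0.66 (SE), and Hsp90b1 the largest downward one at -0.24 ± 0.29 (SE). Among 18 constitutive proteasome subunits, assembly factors and activators, 9 lay above and 9 below 0 with a median of -0.02. Psmb7, the constitutive counterpart of Psmb10, differed by 0.01 ± 0.27 (SE), the activator Psme4 by 0.44 ± 0.39 (SE) and the activator Psme3 by -0.38 ± 0.31 (SE). Of the genes in these lists 0 were at least 1.5-fold higher and 0 lower within both numbers, near the background of 3.44% and 2.21% of the 12509 genes tested for lists of this size.

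Few of the other class I-like heavy chains could be measured. Of 16 listed, 7 had a probe set of their own and 4 passed the filter, all 4 with a PTIP -/- mean above that of PTIP +/+. The share of all genes above 0 was not counted, and the median of all probe sets tested was itself 0.08. Cd1d1, which presents lipids, read 532.4 and 382.3 in PTIP -/- against 199.0 and 79.2 in PTIP +/+, 2.68-fold and 4.83-fold higher without overlap (log2 1.85 ± 0.54, SE, adjusted p = 0.9998 in limma). H2-M3, which presents formylated peptides and was picked with its values in view, read 123.6 and 201.4 against 94.7 and 129.5. Mr1, which presents vitamin B metabolites, was 1.33-fold higher within number 1 and 1.05-fold lower within number 2.

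The genes that control class I transcription showed no common direction. The median log2 difference of the 32 regulators tested was 0.06, with 19 above 0 and 13 below, and 0 passed the test. The inhibitor of NF-kB Nfkbia, the brightest of them, differed by -0.01 ± 0.47 (SE), and Jak1, a kinase of interferon receptors, read 2836.8 and 3034.4 against 3265.7 and 6630.0. Ciita, the class II counterpart of Nlrc5, was 1.62-fold higher within number 1 and at least 1.25-fold higher within number 2, at 80.7 and 59.7 against 49.8 and 36.7, with PTIP +/+ replicate 2 below the filter. Irf1, an interferon-induced activator of class I promoters picked with its values in view, went in opposite directions, at 642.1 and 669.1 against 490.7 and 1087.8. For MHC class II only Cd74 and H2-DMa passed, at 0.29 ± 0.36 (SE) and 0.72 ± 0.47 (SE), the latter with PTIP +/+ replicate 2 just below the filter at 47.1.

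Interferon-stimulated genes had a median below 0 within number 1 and above 0 within number 2. Of 16 tested, 12 had opposite signs in the 2 numbers, where 35.9% of all probe sets tested were higher and 22.3% lower in both numbers. Within number 1 the median was -0.08, with 1 gene at least 1.5-fold higher and 4 lower (background 10.9% and 6.1% of genes). Within number 2 it was 1.20, with 12 higher and 1 lower (background 16.5% and 11.2%), or 11 higher and 0 lower once signals were raised to the filter. The brightest, Ifit2, read 808.4 and 1313.8 in PTIP -/- against 688.5 and 736.8. The chemokine Cxcl10 had the largest upward difference on the deposited signals, but that rank rests on a signal below the filter. It read 132.4 and 153.9 against 85.1 and 5.5, at least 3.23-fold higher within number 2, where Usp18 was 8.05-fold higher. Oas1a read 39.3 and 470.7 against 37.5 and 42.1, at least 9.87-fold higher within number 2. Oas1a passed the filter only through PTIP -/- replicate 2, and Cxcl10 only through its PTIP -/- arrays. Neither adds support to the counts of genes higher within number 2 or highest on that array. Rsad2 had the lowest difference on the deposited signals, and it too rests on signals below the filter. It read 96.1 against 64.9 in number 1, higher in PTIP -/-, and in number 2 both signals, 21.8 and 44.8, were too low to give a direction. Bst2 and Usp18, picked like Oas1a with values in view, read 458.5 and 2161.1 against 470.6 and 541.3, and 131.0 and 630.1 against 190.2 and 78.3. PTIP -/- replicate 2 was the array with the highest signal for 11 of the 16, as it was for H2-K1, H2-D1, Tapbp, B2m, Tap1 and Tap2 on their brightest probe sets. The share of all genes that were highest on that array was not counted. Within number 1 H2-D1 was 1.95-fold, Tapbp 1.71-fold and H2-K1 1.52-fold higher in PTIP -/- on those probe sets. The interferon list had a median of -0.08 there, from 1 array against 1 array. What part the interferon pattern had in the class I values was not tested in either number.

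**Figure D4:**
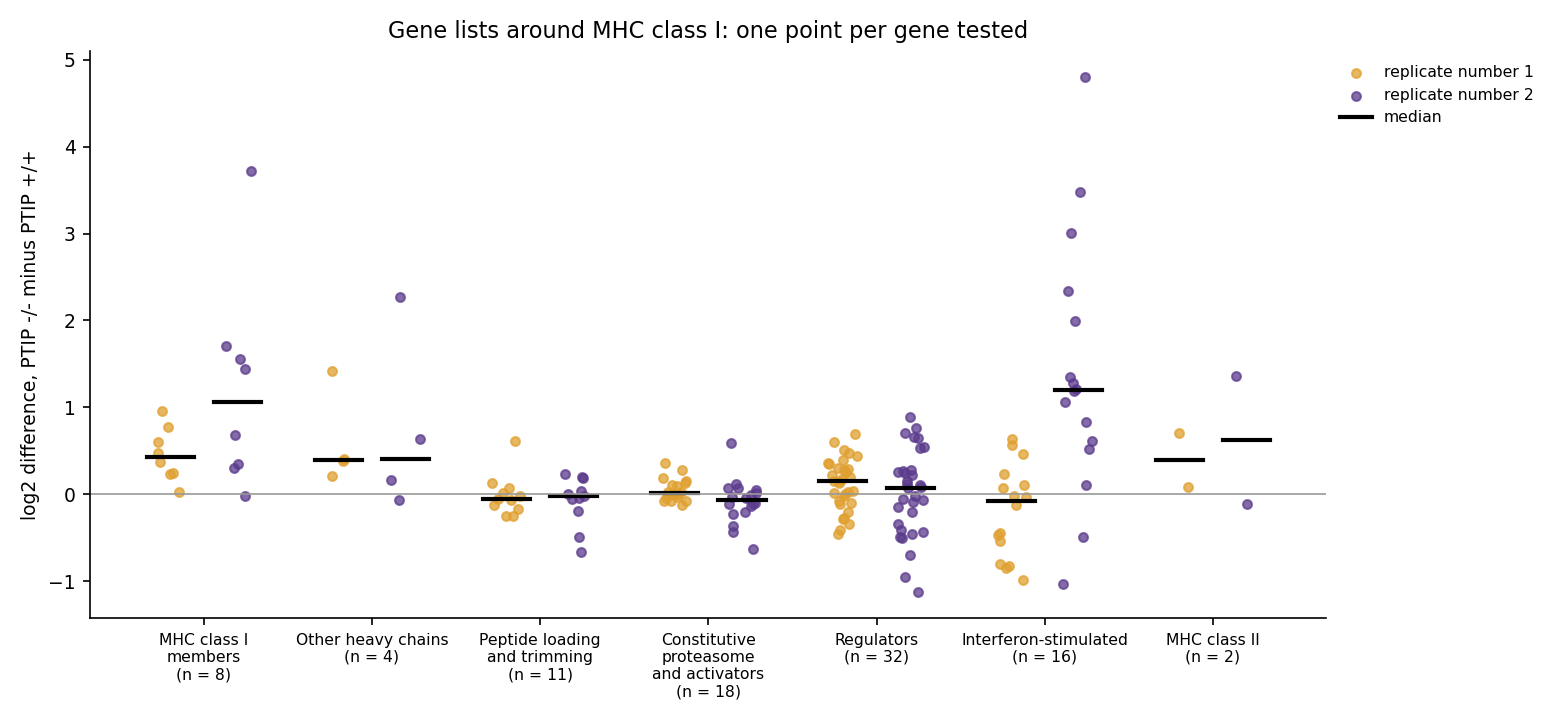
Log2 difference, PTIP -/- minus PTIP +/+, of each tested gene on its brightest probe set (points) within number 1 (yellow) and number 2 (purple), by gene list, with medians as black bars. The members have medians of 0.42 and 1.06, peptide loading and constitutive proteasome genes lie near 0, and interferon-stimulated genes have medians of -0.08 and 1.20, with Nlrc5 and Cxcl10 highest in number 2 over PTIP +/+ signals below the filter.

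Markers of antigen-presenting and other cells were low. The 9 macrophage and dendritic cell markers summed to 1158.8 and 755.8 in PTIP -/- and 849.2 and 549.1 in PTIP +/+, so the sum was higher in PTIP -/- within each number, as were the class I heavy chains. Of the 6 that passed the filter, 6 were higher in PTIP -/- within number 1 and 3 within number 2, and 0 passed the test. The share of all genes higher within a single number was not counted. The part of these markers in the class I values was not tested. The pan-leukocyte marker Ptprc read 34.8 and 51.5 against 51.8 and 11.4. Csf1r, the brightest of the list, differed by 0.03 ± 0.30 (SE), whereas Lyz2 was 2.17-fold higher within number 1 and at least 2.10-fold within number 2, at 333.3 and 99.9 against 153.4 and 36.0. Fcer1g, which did not pass the filter on its mean, read 142.2 and 50.7 in PTIP -/- and lay below the filter on both PTIP +/+ arrays, so it was at least 2.98-fold and at least 1.06-fold higher. In both genotypes the sum of the macrophage and dendritic cell list, which includes markers below the filter, was lower in number 2. Any link of this sum to the class I signals, within or between the numbers, was not tested. The lymphocyte, endothelial and epithelial lists summed to 169.0 to 705.1 on every array. In RNA from whole cultures, more cells that express a gene and more RNA per cell cannot be told apart.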

How the data were processed

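Total RNA of 2 PTIP -/- and 2 PTIP +/+ samples was measured on 4 Affymetrix arrays. The authors deposited linear signal intensities for 45101 probe sets. The submitters' processing notes name RMA, but these intensities are linear, have different quantiles and share a trimmed mean, so how they were corrected and summarised is not known from the labels. The single 0 was set to 0.1, 64 control probe sets were dropped and log2 was taken. Of the rest, 34945 probe sets had 1 symbol, 932 several and 9160 none. Symbols were checked for 34741 of them by gene number in the RefSeq table.

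Genotypes were compared in limma 3.58.1 (R 4.3.3; lmFit, eBayes, 2 residual degrees of freedom, no block) over 27022 probe sets, with Benjamini-Hochberg adjustment, on a script tested on simulated data. Lists use each gene's brightest probe set. Where the dimmer array lay below 47.68 it was raised to it and the fold is "at least". Members, lists and motifs were chosen with earlier results of these data known. Named were all members and, per list, the brightest gene and those with the largest difference in each direction. Alternatives were quantile normalization, median centring, other filters, a variance trend, 1 probe set per gene, raised signals, the replicate block and each array left out.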

Additional observations from a re-analysis of the deposited data

How the results depend on the processing

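In limma, the count of probe sets at an adjusted p under 0.05 was 0 in all 12 alternatives, with 0 to 0 over those that leave out 1 array. Of 181 member log2 differences under these alternatives, 172 kept their direction, 9 turned and 0 passed, with adjusted p from 0.648. Median centring moved the median difference of all probe sets tested from 0.08 to -0.097 and turned the brighter B2m probe set to -0.013 and Psmb10 to -0.073. With 1 array left out, differences ran from -0.19 to 1.96 (H2-K1, second brightest), -0.050 to 0.38 (B2m, brighter), -0.55 to 1.13 (Tap1), -0.39 to 1.55 (Tap2) and -0.017 to 0.23 (Psmb10). The brightest probe sets of H2-K1 (0.48 to 1.57), H2-D1 (0.36 to 2.30) and Tapbp (0.34 to 1.98) and the H2-D1 probe set without _x_at (0.0071 to 1.53) kept their sign but moved by over 1.5 times. Those below 0 came without PTIP -/- replicate 2 or without PTIP +/+ replicate 1, which leaves the numbers unequal between genotypes, and the spread then comes from 1 genotype alone. The count of members at least 1.5-fold higher in number 1 was 5 of 16 with centring and 13 of 27 with no filter, beside 8 of 16 in the main setting. In both numbers it was 4 of 16 with centring. With 1 probe set per gene it was 3 of 8 in number 1 (background 10.9% of genes), 5 of 8 in number 2 (16.5%) and 3 of 8 in both (3.44%). The background with centring and with no filter was not counted. With no filter, 1 of 27 was at least 1.5-fold lower in both numbers, the second brightest of Tap1, at signals of 6.1 to 64.9. Without overlap were 3 of 16 with centring and 2 of 8 with 1 probe set per gene, beside 5 of 16 in the main setting. The share of all probe sets or genes without overlap was not counted under these alternatives. The number 2 member median was 0.71 with no filter. Fewer or dimmer probe sets enter under the filter and gene settings, and otherwise the cause was not tested.

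With the replicate block 0 probe sets passed either, while 2018 of 27022 had an unadjusted p under 0.05 in limma, in place of 624. Among them were 8 of the 16 tested member probe sets, all those of H2-D1 and Tapbp and 2 of H2-K1. Several stand for the same gene, so they are not independent, and each had an adjusted p of at least 0.648. Same-numbered arrays deviated together from their group means (r = 0.64 across probe sets, which are not independent), but the labels do not say what the number marks. With 2 arrays a genotype, not even the difference of the deleted Paxip1 was called. The absence of calls among the members therefore does not show that they were unchanged.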

Other observations

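Probe sets shared between a classical heavy chain and another gene were outside the members. The 1 annotated to both H2-K1 and H2-D1 read 335.6 and 482.8 in PTIP -/- replicates 1 and 2 against 207.9 and 240.0 in PTIP +/+, 1.61-fold and 2.01-fold higher. The 1 annotated to H2-K1 and H2-Q5 read 317.9 and 171.3 against 212.2 and 176.9, higher within number 1 and 1.03-fold lower within number 2. Neither passed in limma (adjusted p = 0.9998 for both).

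Psme1, a subunit of the interferon-inducible PA28 proteasome activator, separated by number like Tap1 and Tap2, as seen after its values were known. It read 714.1 and 2528.6 in PTIP -/- against 555.3 and 3431.3 in PTIP +/+, higher in PTIP -/- within number 1 and lower within number 2.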
